A study of Homo sapiens with 9 samples.

Results

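BNIP3 and BNIP3L (also called NIX) are a pair of related receptors on the mitochondrial outer membrane, and their transcripts were followed here in A549 cells, an established line from a human lung adenocarcinoma. They were taken as the probe sets whose platform gene symbol is BNIP3 or BNIP3L, and each gene had 1 probe set. The 2 probe sets stood among 53617 in the table and the 2 genes among 10916 that could be tested. Both genes were selected on their intensities across the groups of these arrays, so their levels and differences are given as a description, without p-values. The study had 3 conditions, each held for 5 days and read on 3 arrays of total RNA. The low-attachment group with FP001 grew on plates that cells hardly stick to, in medium with 0.015% (w/v) of an additive known here only by that code. The low-attachment group grew on the same kind of plate with water (Milli-Q) in place of FP001. The attachment group, the control, grew on ordinary plates with normal medium. No group had FP001 on attachment plates, so the FP001 group differs from the attachment group in both plate and additive. The shares of plate and additive cannot be told apart in that comparison. All groups were the same line in serum-containing medium, and nothing states that the 3 replicates came from separate cultures. A p-value here thus reflects the scatter of these arrays alone, and that scatter may be technical.

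Mitophagy is the removal of mitochondria by autophagy. BNIP3 and BNIP3L sit in the outer membrane and bind LC3 and GABARAP proteins on the forming autophagosome, which ties the mitochondrion to it without the PINK1 and Parkin route that tags damaged mitochondria with ubiquitin. Both are BCL2-related proteins, and both genes are known targets of HIF, the transcription factor that oxygen shortage stabilises. The FBXL4 and PPTC7 proteins hold down the levels of both receptors.

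HIF binds DNA at a short core, ACGTG or GCGTG, so the BNIP3 promoter is shown with its ACGTG matches. The sequence is RefSeq's for build GRCh38.p14, minus strand, chr10:131981874-131982173, and runs from 250 bases before the transcription start to 50 bases after it. Capitals mark the overlapping ACGTG matches, 1 on each strand.
BNIP3 promoter: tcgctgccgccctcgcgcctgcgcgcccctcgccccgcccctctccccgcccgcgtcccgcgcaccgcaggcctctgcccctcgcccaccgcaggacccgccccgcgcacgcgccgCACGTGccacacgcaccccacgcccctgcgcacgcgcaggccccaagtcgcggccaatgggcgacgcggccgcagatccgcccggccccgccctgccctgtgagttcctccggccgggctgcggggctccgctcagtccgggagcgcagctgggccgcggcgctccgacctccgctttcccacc
The ACGTG on the opposite strand covered positions −134 to −130 from the start, and that on the same strand −133 to −129, so together they read as 1 palindrome. A further 4 GCGTG matches lay on the opposite strand. Among 27305 RefSeq promoters of the same length, 21.6% held ACGTG and 36.3% held GCGTG on either strand, and among 31 other HIF target genes with a promoter 19 and 16 did. The BNIP3 window was 80.7% G or C, against a median of 58.3% over all those promoters. Such matches describe letters in a window and are not binding sites shown by these data.

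BNIP3 lies on chromosome 10 at 131967684 to 131981923 and BNIP3L on chromosome 8 at 26383054 to 26413127 (GRCh38.p14, RefSeq). RefSeq also holds 46 BNIP3 pseudogenes, 33 of them on chromosome 19. None was named on the array, and whether the BNIP3 probe set also reads their transcripts was not tested.

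The array titled as replicate 1 of the attachment group was left out. Its highest rank correlation with any other array was −0.00191, whereas the other 8 correlated at 0.961 to 0.985 among themselves, and it read 7.85 for BNIP3 and 20.6 for BNIP3L. Median intensities were 23.3 to 24.1 on the 8 arrays used, whose number limits how precise each value can be. Of 11 epithelial and A549 markers 5 were named (EPCAM, KRT7, KRT8, KRT18 and KRT19). Their summed intensity, mostly KRT18, was 5127 to 5686 with FP001, 4407 to 4746 on low attachment and 4203 to 4359 on attachment plates. In that order KRT18 averaged 4422, 3724 and 3590 and KRT19 540, 376 and 184. EPCAM ran the other way at 162, 220 and 233. KRT8 averaged 140, 145 and 147, and KRT7 98.7, 84.1 and 122. The 3 named of 7 leukocyte markers, which include LYZ, also a product of airway glands, summed to 622 to 954, 557 to 789 and 424 to 503 in the same order. Of these, CD68 averaged 507, 415 and 303, LYZ 109, 86.2 and 18.0, and CD14 129, 148 and 140. The 2 named of 7 fibroblast markers summed to 82.7 to 440.1, 27.9 to 250.4 and 31.6 to 96.7, with DCN below the array median everywhere. The 3 named of 5 endothelial markers summed to 55.8 to 71.5, 51.2 to 55.9 and 46.1 to 52.3, and none of the erythroid markers was named. The part of these shifts in the results below was not tested. In bulk RNA, fewer cells of a type and less RNA per cell cannot be told apart.

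BNIP3L was lowest in the FP001 group and stood at similar levels in the other groups. Its intensity was 736, 745 and 772 on FP001 replicates 1, 2 and 3. It was 1148, 1164 and 1245 on the low-attachment arrays, and 1376 and 1154 on attachment replicates 2 and 3. Every FP001 array lay below every array of the other groups, while attachment replicate 3 fell inside the low-attachment range. The group means, taken on the log2 scale and turned back to intensity, were 751, 1185 and 1260 in that order, with SDs of 0.04 (n = 3), 0.06 (n = 3) and 0.18 (n = 2) on the log2 scale.

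BNIP3 followed the same order with a smaller gap. Its intensity was 799.6, 731 and 739.6 with FP001. It was 909, 892 and 1068 on low attachment, and 1194 and 855 on attachment replicates 2 and 3. All 3 FP001 arrays were below all others, but the nearest attachment array stood only slightly above them. The group means were 756 with FP001, 953 on low attachment and 1010 on attachment plates, with log2 SDs of 0.07 (n = 3), 0.14 (n = 3) and 0.34 (n = 2). The low-attachment and attachment levels overlapped for both genes and did not differ beyond their spread.

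**Figure D1:**
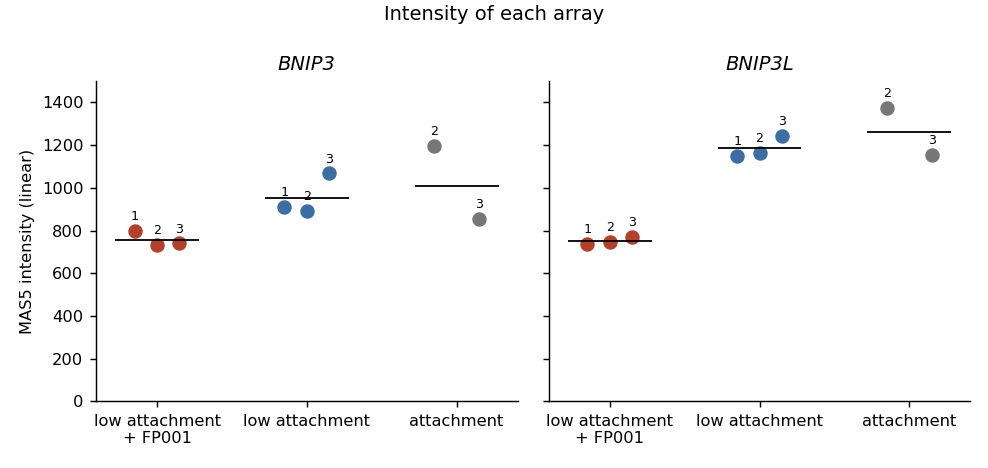
MAS5 intensity (linear axis from 0) of BNIP3 (left) and BNIP3L (right) on each of the 8 arrays. Points are arrays labelled by replicate number, and lines are group means taken on the log2 scale. The FP001 arrays lie at 731 to 799.6 for BNIP3 and 736 to 772 for BNIP3L, below all other arrays.

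Between FP001 and low attachment, the log2 difference was −0.66 ± 0.08 (SE) for BNIP3L, 1.58-fold lower with FP001, and −0.33 ± 0.12 for BNIP3, 1.26-fold lower. Expressed as a change, the intensity of BNIP3L was −36.6% and that of BNIP3 −20.7%. Arrays with the same replicate number varied together between these groups, and BNIP3L differed by −0.64, −0.64 and −0.69 over numbers 1, 2 and 3. BNIP3 differed by −0.19, −0.29 and −0.53, so its gap was less even. In this comparison both genes had groups that did not overlap, and so did 17.5% of all genes tested, 9.01% with the FP001 arrays lower. Calls at an adjusted p under 0.05 were rarer, at 0.11% of the genes tested (0.0366% higher and 0.0733% lower), or 1.3% with replicate number as a block over the 3 groups (0.458% and 0.843%). BNIP3L ranked 40 from the lowest among 10916 differences and BNIP3 ranked 375, which puts 0.366% and 3.44% of the genes at or below them. Since both genes were picked for this difference, their ranks carry no test.

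For FP001 minus attachment plates the log2 difference was −0.75 ± 0.09 for BNIP3L (1.68-fold lower) and −0.42 ± 0.13 for BNIP3 (1.34-fold lower). The low-attachment arrays without FP001 differed from them by −0.09 ± 0.09 for BNIP3L and −0.08 ± 0.13 for BNIP3. Both comparisons use the same attachment arrays. Groups did not overlap for 52.8% of all genes with FP001 against attachment plates (26.2% lower), where both members did not overlap, and for 45.6% with low attachment (23.4% lower), where both members did. In the comparison of FP001 with attachment plates 19.5% of the genes were called (8.08% higher and 11.4% lower), and in that of low attachment with attachment plates 10.1% were (4.31% higher and 5.76% lower). With quantile normalization the split of calls turned, to 1239 higher and 968 lower in place of 882 and 1244, and to 612 higher and 512 lower in place of 471 and 629. The BNIP3 value rests on which attachment array is used. FP001 minus attachment was −0.18 when attachment replicate 2 was left out and −0.66 when replicate 3 was, and low attachment minus attachment was 0.16 and −0.33. For BNIP3L the same omissions gave −0.62 and −0.87, and 0.04 and −0.22. Over all genes, leaving out attachment replicate 2 or 3 changed the 2126 calls with FP001 to 661 and 1115 and the 1100 calls on low attachment to 359 and 452, and leaving out FP001 replicate 1 or 2 changed the 2126 to 1276 and 1338.

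**Figure D2:**
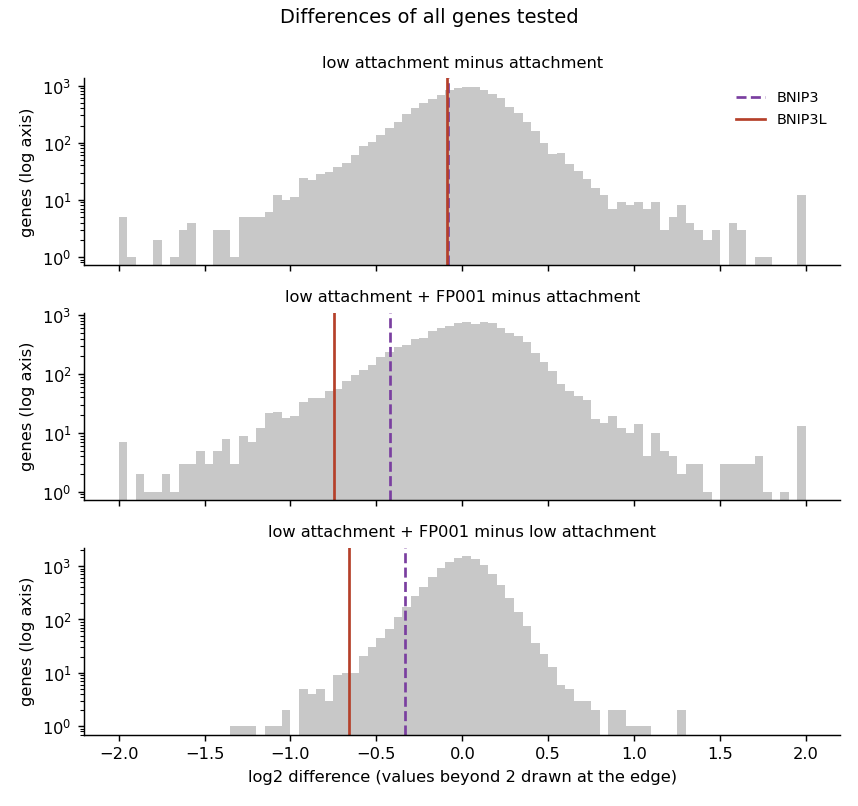
Number of genes (log axis) by log2 difference in each comparison, over the 10916 genes tested, with BNIP3 (dashed) and BNIP3L (solid) marked. Both lines sit near the middle at −0.08 and −0.09 for low attachment minus attachment, and BNIP3L lies far to the left of the bulk at −0.66 for FP001 minus low attachment.

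The balance of the pair also shifted within the arrays. The log2 ratio of BNIP3L to BNIP3 intensity was −0.12 to 0.06 on FP001 arrays, 0.22 to 0.38 on low-attachment arrays and 0.20 to 0.43 on attachment arrays. Its means were −0.01 ± 0.10 (SD, n = 3), 0.31 ± 0.08 (SD, n = 3) and 0.32 ± 0.16 (SD, n = 2). The FP001 arrays did not overlap with the others, and their mean ratio differed by −0.32 from low attachment and by −0.33 from attachment plates. Because probe sets differ in brightness, only the shift of this ratio can be read. It describes a larger difference in the BNIP3L intensity than in that of BNIP3. Whether the 2 probe sets respond alike to their transcripts was not tested.

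The patterns of the genes over the 8 arrays were alike but not the same (Pearson r = 0.879, and 0.846 to 0.920 with any 1 array left out). All arrays share 3 groups, so such values describe these arrays and carry no p. A total of 155 genes followed BNIP3L more closely than BNIP3 did, and 62 followed BNIP3 more closely than BNIP3L did.

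The 5 genes closest to BNIP3L were PROS1 (r = 0.984), HBP1 (0.979), CASD1 (0.976), NEK9 (0.973) and C5 (0.971). PROS1 encodes protein S, a cofactor that restrains blood clotting, and averaged 266 with FP001, 417 on low attachment and 459.8 on attachment plates. C5, a complement component, averaged 451 with FP001, 812 on low attachment and 982 on attachment plates. HBP1, a transcriptional repressor, differed by −0.36 between FP001 and low attachment, CASD1, a sialic acid acetylating enzyme, by −0.30, and NEK9, a kinase of mitosis, by −0.28. Those farthest from BNIP3L were KRT18 (−0.990), GPR21 (−0.984) and TCF24 (−0.970). KRT18, a keratin of simple epithelia, read 4579, 4404 and 4288 with FP001, 3763, 3770.5 and 3640.1 on low attachment, and 3478 and 3705 on attachment plates. Its FP001 arrays were therefore above all others, where those of BNIP3L were below.

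The genes closest to BNIP3 were ACSM3 (r = 0.969), FBXO2 (0.963), ZNF33A (0.948), LIX1L (0.946) and TTC8 (0.945), and those farthest were BTBD17 (−0.978), ARHGAP10 (−0.968) and SUSD5 (−0.958). ACSM3, a mitochondrial enzyme that activates medium-chain fatty acids, averaged 189 with FP001, 253 on low attachment and 271 on attachment plates. FBXO2, a ubiquitin ligase subunit that recognises glycoproteins, averaged 48.4, 57.2 and 64.0 in the same order. These genes were picked for their likeness among all genes tested.

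**Figure D3:**
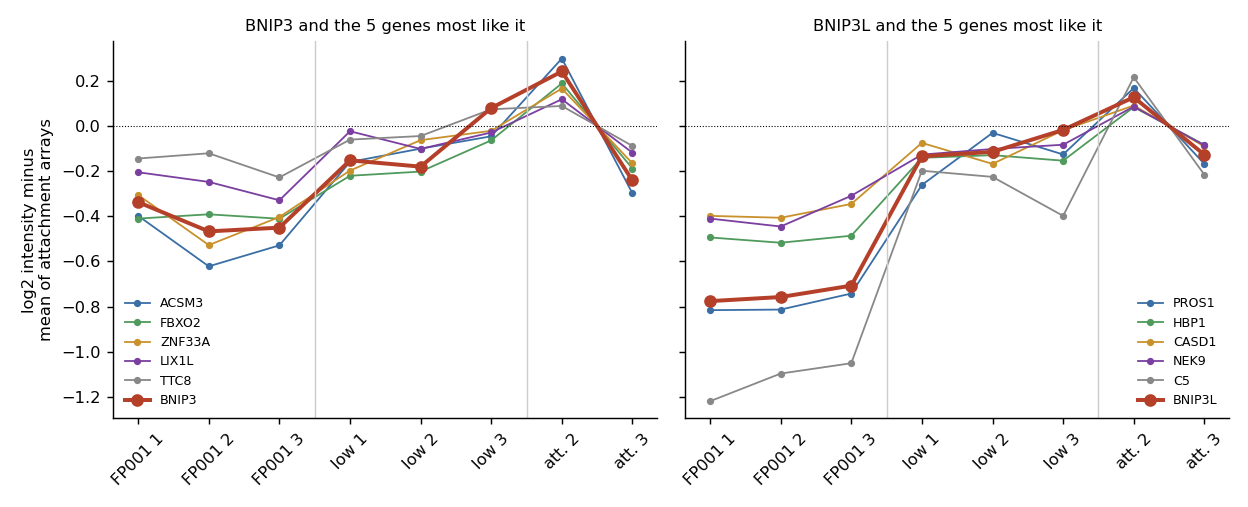
Log2 intensity minus the mean of the attachment arrays on each array, for BNIP3 (left) and BNIP3L (right) and the 5 genes most like each. The array number follows the group name (FP001, low attachment, attachment), and grey lines part the groups. The FP001 arrays are lowest throughout the right panel, where C5 averages −1.12 and BNIP3L −0.75 against attachment plates.

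Around the receptors, 185 genes of mitophagy, autophagy, HIF and mitochondrial lists were considered and 129 could be tested with limma. Their differences are on the log2 scale with SEs, and p-values, also where only the value stands in parentheses, are limma's, adjusted over all genes tested. For FP001 against attachment plates, 30 of the 129 (23.3%) were called, 9 higher and 21 lower, beside the 19.5% of all genes tested. For low attachment against attachment plates, 12 (9.3%) were called, 4 higher and 8 lower, beside 10.1%. Both shares are near those of all genes. Without attachment replicate 2 the counts were 8 and 3, and without FP001 replicates 1 and 2 the first was 15 and 18. Without low-attachment replicate 1 the second was 7. The median log2 differences were −0.09 and −0.08 over the list genes, against 0.02 and 0.01 over all genes tested. Of the 42 calls of these genes, 10 held whichever single array was left out, and these were the calls of VAMP8 and CTSD in both comparisons and of TAX1BP1, RB1CC1, ARNT, ADM, ANGPTL4 and STC2 for FP001 against attachment plates. Other settings (filter, scaling, variance trend, groups fitted, block or probe sets) ended the calls of SQSTM1, TFEB, BNIP2 and TIMM23 on low attachment and of RHOT1, ATG14, BNIP2, E2F1, MFN1, POLRMT and CS with FP001 at least once, with limma adjusted p-values of 0.0507 to 0.277 there.

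For FP001 against low attachment, limma called 0 of the 129, against 15 at an unadjusted p under 0.05. Of all 10916 genes tested, 1265 had such an unadjusted p. The median over the list genes was −0.03, against 0.01 over all genes. With replicate number as a block 1 was called. This was DDIT4, a HIF target that restrains mTOR signalling, which read 430.2, 482 and 492 with FP001 against 521, 649 and 699 on low attachment. Its groups did not overlap, and neither did those of 17.5% of all genes. The log2 difference of DDIT4 was −0.40 ± 0.12, with a limma adjusted p of 0.232, and 0.0399 with the block over the 3 groups. Since the attachment arrays were not paired by number, a block on the low-attachment arrays alone was added after seeing the data, and gave 0.0471. Over all genes this comparison had 12 calls, 4 higher and 8 lower, and 142 with the block, 50 higher and 92 lower, or 117 with the block on the low-attachment arrays alone, 40 higher and 77 lower. The 12 became 0 without any 1 of the FP001 arrays and 1 without low-attachment replicate 2 or replicate 3.

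**Figure D4:**
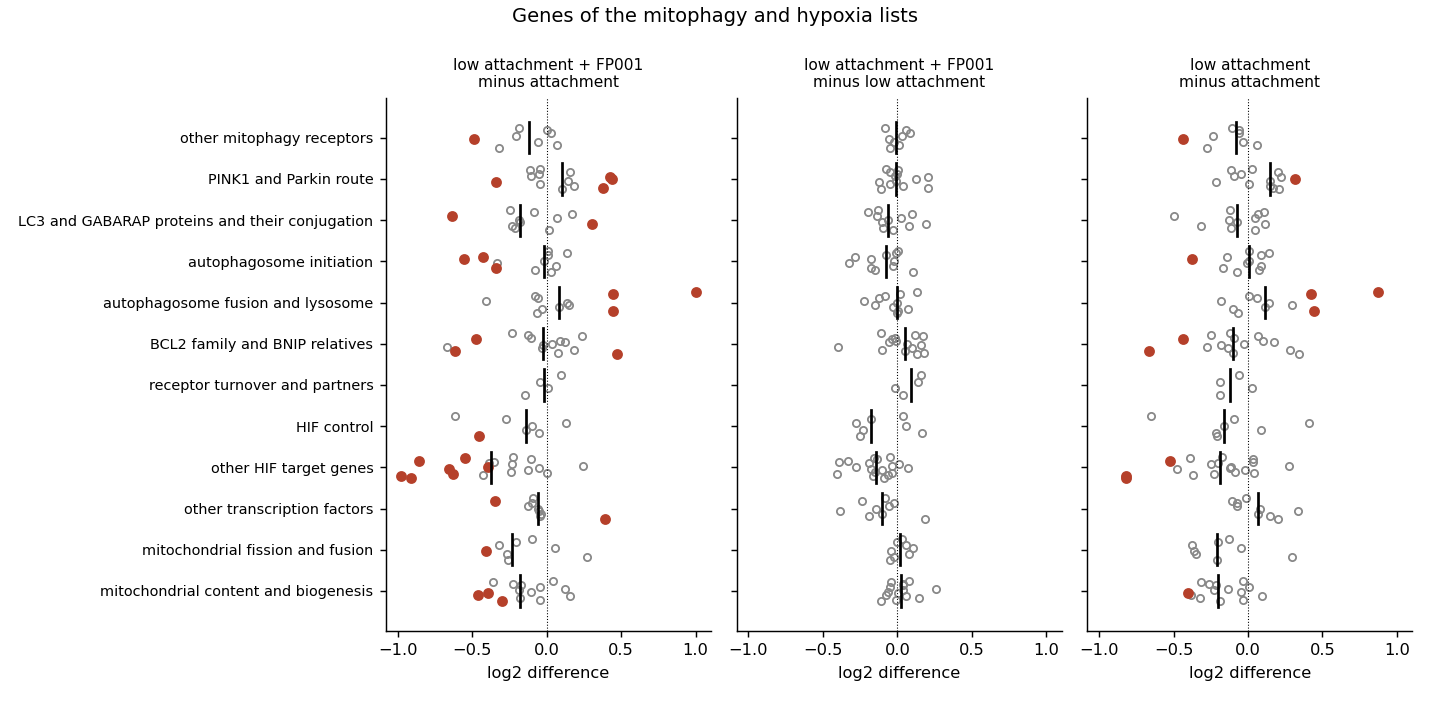
Log2 difference of each tested gene of the 12 lists (circles, 129 genes) in the 3 comparisons, with black bars at list medians. Filled red circles are calls at a limma adjusted p under 0.05. The HIF targets hold 7 calls below 0 in the left panel, and the middle panel holds no call.

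Of the other mitophagy receptors, 8 were tested and 1 was called lower in both comparisons with attachment plates, beside the 11.4% and 5.76% of all genes called lower. NIPSNAP1, a mitochondrial protein that flags damaged mitochondria to autophagy adaptors, fell by 0.49 ± 0.10 with FP001 (limma adjusted p = 0.0083) and fell by 0.44 ± 0.10 on low attachment (0.0214). Both calls were lost without attachment replicate 2 (0.0907 and 0.172), and the low-attachment call also without low-attachment replicate 1 (0.0520). FUNDC1, the outer membrane receptor that also answers to oxygen shortage, differed by −0.02 ± 0.08 between FP001 and low attachment. BCL2L13 differed by 0.01 ± 0.12 and PHB2, an inner membrane receptor, by −0.08 ± 0.08. Their adjusted p-values from limma were 0.933, 0.985 and 0.752. FKBP8 was not analysed here.

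On the PINK1 and Parkin route 13 genes were tested. With FP001 against attachment plates 3 were called higher and 1 lower, beside 8.08% and 11.4% of all genes. On low attachment 1 was called higher, beside 4.31%. TAX1BP1, an adaptor that binds ubiquitin on cargo, read 1342, 1285 and 1266 with FP001, 1121, 1116 and 1132 on low attachment and 1005 and 926 on attachment plates. No groups overlapped, and it rose by 0.43 ± 0.07 with FP001 against attachment plates (limma adjusted p = 0.00321). Groups also did not overlap for 52.8% of all genes in that comparison. The share was 45.6% on low attachment against attachment plates and 17.5% between FP001 and low attachment. SQSTM1, the adaptor p62, rose by 0.44 ± 0.08 with FP001 (0.00612) and by 0.31 ± 0.08 on low attachment (0.0405). The first call was lost without attachment replicate 2 (0.0547), and the second without either attachment array, any low-attachment array or FP001 replicate 2 (0.0650 to 0.184). MUL1, a mitochondrial ubiquitin ligase, rose by 0.38 ± 0.11 (0.0351), a call lost without either attachment array or FP001 replicates 1 or 3 (0.0515 to 0.171). RHOT1, which couples mitochondria to motor proteins, fell by 0.34 ± 0.10 (0.0334), a call lost without attachment replicate 2, low-attachment replicate 3 or any FP001 array (0.0514 to 0.281). PINK1 itself differed by −0.04 ± 0.11 with FP001 and by 0.00 ± 0.11 on low attachment against attachment plates. OPTN, another adaptor, differed by 0.19 ± 0.11 and 0.15 ± 0.11.

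Among the LC3 and GABARAP proteins that the receptors bind, and the enzymes that attach these to membranes, 11 were tested. With FP001 against attachment plates 1 was called higher and 1 lower, beside 8.08% and 11.4% of all genes. On low attachment none was called, beside 10.1% of all genes. GABARAPL1 fell by 0.64 ± 0.15 with FP001 (limma adjusted p = 0.0170). It differed by −0.50 ± 0.15 on low attachment (0.0619). ATG3, the enzyme that transfers these proteins to lipid, rose by 0.31 ± 0.08 with FP001 (0.0276). Both calls were lost without attachment replicate 2, attachment replicate 3 or FP001 replicate 1, that of ATG3 also without FP001 replicate 2, with adjusted p-values of 0.0512 to 0.118. MAP1LC3B differed by −0.13 ± 0.10 between FP001 and low attachment, and its groups did not overlap there. Neither did those of 17.5% of all genes, 9.01% with FP001 lower. It was dim, at 26.7 to 27.6 with FP001 and 28.1 to 30.6 on low attachment, near the array medians of 23.3 to 24.1.

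Of 11 initiation genes, 3 were called lower with FP001 and 1 on low attachment, against attachment plates, beside 11.4% and 5.76% of all genes. RB1CC1, the scaffold of the ULK kinase complex, fell by 0.55 ± 0.08 with FP001 (limma adjusted p = 0.00173) and fell by 0.38 ± 0.08 on low attachment (0.0184), the second call being lost without attachment replicate 2 (0.146) or low-attachment replicate 3 (0.0568). ULK1, the kinase, fell by 0.43 ± 0.09 with FP001 (0.0108), a call lost without attachment replicate 2 (0.0841). ATG14, a subunit of the lipid kinase complex, fell by 0.34 ± 0.11 (0.0492), which was lost without any 1 of 6 arrays, namely attachment replicates 2 and 3, low-attachment replicates 2 and 3 and FP001 replicates 1 and 2 (0.0666 to 0.225).

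Of 11 tested genes of fusion and the lysosome, 3 were called higher in both comparisons with attachment plates and none was called lower. Over all genes 8.08% with FP001 and 4.31% on low attachment were called higher. VAMP8, a SNARE that fuses autophagosomes with lysosomes, read 226, 204 and 197 with FP001, 191, 179 and 203 on low attachment, and 99.6 and 108 on attachment plates. It rose by 1.01 ± 0.10 with FP001, 2.01-fold (limma adjusted p = 0.000264), and by 0.88 ± 0.10 on low attachment, 1.84-fold (0.000921). CTSD, a lysosomal protease, rose by 0.45 ± 0.07 (0.00246) and 0.44 ± 0.07 (0.00429). TFEB, a transcription factor of lysosome genes, rose by 0.44 ± 0.11 (0.0209) and 0.42 ± 0.11 (0.0373). It was dim, at 40.7 to 43.7 with FP001, 38.7 to 44.8 on low attachment and 30.0 to 32.0 on attachment plates. Its first call was lost without either attachment array or FP001 replicates 1 or 2 (0.0505 to 0.130), and its second without any 1 of the arrays other than FP001 replicates 1 and 3 (0.0504 to 0.194). Between FP001 and low attachment none of these 3 was called, and CTSD differed by 0.00 ± 0.06.

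The BCL2 family and the BNIP relatives had 15 genes tested. With FP001 against attachment plates 1 was called higher and 2 lower, beside 8.08% and 11.4% of all genes. On low attachment 2 were called lower, beside 5.76%. BAX permeabilises the outer membrane in apoptosis. Against attachment plates, BAX fell by 0.61 ± 0.12 with FP001 (limma adjusted p = 0.00585) and by 0.66 ± 0.12 on low attachment (0.00644). Both calls were lost without attachment replicate 2, where the values were −0.54 and −0.59. The BAX group means were 245 with FP001, 236 on low attachment and 374 on attachment plates. BAD, a pro-apoptotic partner of BCL2 proteins, rose by 0.47 ± 0.11 with FP001 against attachment plates (0.0165). That call was lost without either attachment array, where the values were 0.45 and 0.49. BNIP2 shares a name with the receptors but is not one of them. Against attachment plates it fell by 0.47 ± 0.12 with FP001 (0.0242) and by 0.44 ± 0.12 on low attachment (0.0495). It has more than 1 probe set and these differed, since with their mean the values were −0.30 and −0.18 and neither was called. The first BNIP2 call was also lost without attachment replicate 2 (0.187) or FP001 replicate 1 (0.0610), and the second without any 1 of the arrays other than FP001 replicate 1 (0.0611 to 0.291). BNIP1, BCL2L1 and MCL1 differed between FP001 and low attachment by −0.01 ± 0.09, 0.10 ± 0.11 and 0.12 ± 0.10 (adjusted p = 0.973, 0.753 and 0.680 from limma). BCL2 was too dim to be tested.

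Of the proteins that turn the receptors over or bind them, 4 were tested and none was called in any comparison. Of all genes, 19.5% were called with FP001 and 10.1% on low attachment against attachment plates, and 0.11% between FP001 and low attachment. FBXL4 differed between FP001 and low attachment by −0.01 ± 0.09 and PPTC7 by 0.14 ± 0.12. CUL1, a ubiquitin ligase scaffold, differed by 0.04 ± 0.08 and RHEB, a small GTPase reported to bind BNIP3 and BNIP3L, by 0.16 ± 0.10.

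HIF control had 7 genes tested, of which 1 was called lower with FP001 against attachment plates, beside 11.4% of all genes. ARNT, the constant partner subunit of HIF, fell by 0.46 ± 0.08 with FP001 against attachment plates (limma adjusted p = 0.00382), reading 282, 291 and 298 with FP001, 345, 356 and 333 on low attachment, and 401 and 396 on attachment plates. No ARNT groups overlapped. Neither did those of 52.8% of all genes with FP001 against attachment plates, 45.6% on low attachment against them, and 17.5% between FP001 and low attachment. EPAS1, an oxygen-sensitive subunit, differed by −0.61 ± 0.24 with FP001 and −0.65 ± 0.24 on low attachment against attachment plates, neither of which was called (0.0967 and 0.114), and its first value was called without low-attachment replicate 1 (0.0368). With replicate number as a block over the 3 groups, where the attachment arrays share only a number with the others, its values were −0.39 and −0.43 and both were called (0.0160 and 0.0140). EGLN1 and EGLN3, the hydroxylases that mark HIF for decay, differed by 0.06 ± 0.09 and −0.28 ± 0.13 between FP001 and low attachment. HIF1A was not analysed here.

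The other HIF target genes that could be tested were more often lower than higher. The list held 34 genes, of which 19 were named and 18 tested. CA9, PDK1 and SLC2A1 were among those not analysed here. Of 18 tested, 7 were called lower and 0 higher with FP001 against attachment plates, beside 11.4% and 8.08% of all genes, and 3 were called lower on low attachment, beside 5.76%. The median differences were −0.37 with FP001 and −0.19 on low attachment, and −0.14 between FP001 and low attachment. Below 0 lay 16, 14 and 16 of the 18, where 47.5%, 48.5% and 48.4% of all genes did. Without attachment replicate 2 the 7 calls were 3, and without FP001 replicate 1 they were 4, and the list median lay between −0.49 and −0.16 over all single omissions.

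The called targets of largest change were low in both low-attachment groups. ANGPTL4, an inhibitor of lipoprotein lipase, read 68.6, 91.1 and 79.8 with FP001, 78.2, 94.7 and 94.5 on low attachment, and 145 and 169 on attachment plates. ADM, a vasodilator peptide, read 86.2, 89.7 and 88.5 with FP001, 81.8, 88.4 and 114 on low attachment, and 172 and 159.7 on attachment plates. For both, the FP001 and low-attachment arrays overlapped and all lay below the attachment arrays, whereas the BNIP3L intensity was below the attachment arrays on all FP001 arrays and on 1 of the low-attachment arrays. Over all genes, 26.2% with FP001 and 23.4% on low attachment lay wholly below the attachment arrays. PGK1, an uncalled target named after its values were seen, was more like BNIP3L. It averaged 318 with FP001 (300 to 328), 417 on low attachment (391 to 465) and 406 on attachment plates (357 to 463). Against attachment plates, ANGPTL4 fell by 0.98 ± 0.14 with FP001 (limma adjusted p = 0.0014) and by 0.82 ± 0.14 on low attachment (0.00578). In the same comparisons ADM fell by 0.91 ± 0.13 (0.00153) and 0.82 ± 0.13 (0.00439). The low-attachment calls were lost without attachment replicate 3 for ANGPTL4 (0.0611) and without attachment replicate 2 for ADM (0.0501).

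STC2, a secreted glycoprotein, read 59.0, 48.1 and 47.3 with FP001, 61.5, 63.5 and 68.9 on low attachment, and 103 and 83.5 on attachment plates. Its 3 groups did not overlap. Of all genes, 52.8% did not overlap with FP001 against attachment plates, 45.6% on low attachment against them, and 17.5% between FP001 and low attachment. Against attachment plates, STC2 fell by 0.86 ± 0.13 with FP001 (limma adjusted p = 0.00207) and by 0.52 ± 0.13 on low attachment (0.0314). The second call was lost without attachment replicate 2, where the value was −0.37, or without any low-attachment array (0.0526 to 0.0798). KDM3A, a histone demethylase, fell by 0.65 ± 0.18 with FP001 against attachment plates (0.0313). That call was lost without either attachment array, at −0.58 and −0.73, or without FP001 replicate 1 (0.0686). The other 3 calls with FP001 against attachment plates were named after their values were seen. They were DDIT4 at −0.63 ± 0.13 (0.00931), the growth factor VEGFA at −0.55 ± 0.13 (0.0192) and the glycolytic enzyme LDHA at −0.39 ± 0.10 (0.0247). All 3 were lost without attachment replicate 2 (0.102, 0.178 and 0.148), VEGFA also without FP001 replicates 1 or 2 (0.0550 and 0.0508), and LDHA also without attachment replicate 3 or FP001 replicates 1 or 2 (0.0552 to 0.0730). Differences of the 18 genes between the low-attachment groups were not called.

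**Figure D5:**
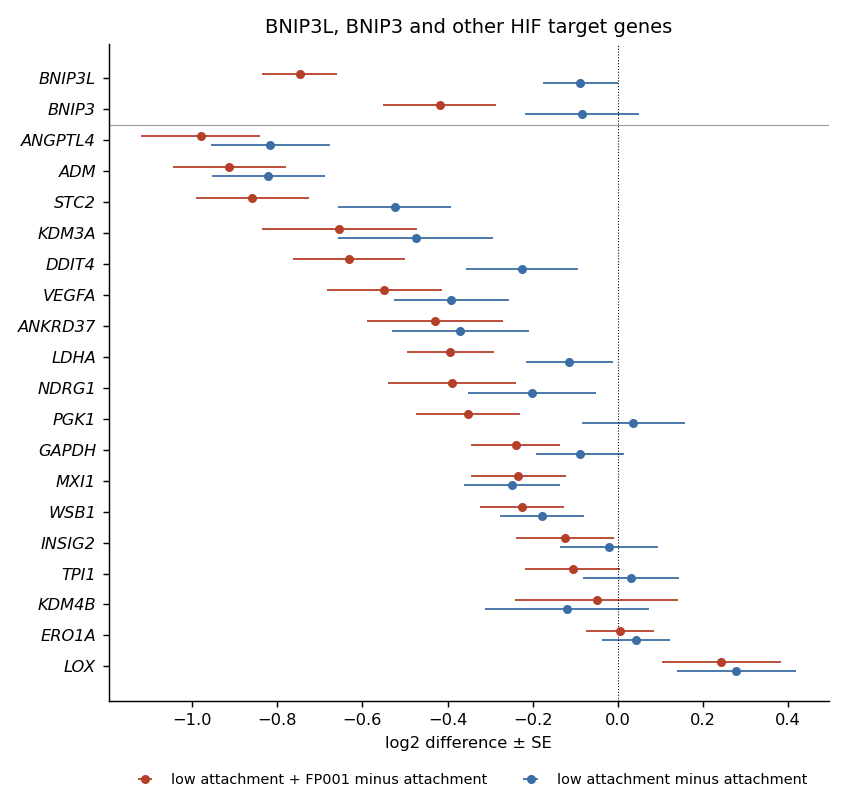
Log2 difference from attachment plates with its SE for BNIP3L, BNIP3 and the 18 other HIF target genes tested, with FP001 in red and low attachment in blue. BNIP3L has a wide gap between the colours (−0.75 and −0.09), whereas ANGPTL4 and ADM are low in both. PGK1 also stands lower with FP001 (mean 318) than on low attachment (417).

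The 9 other transcription factors tested were linked to the receptor genes or to autophagy. With FP001 against attachment plates 1 was called higher and 1 lower, beside 8.08% and 11.4% of all genes. E2F1 rose by 0.39 ± 0.12 there (limma adjusted p = 0.0413) and RELA, a subunit of NF-kB, fell by 0.35 ± 0.09 (0.0210). The E2F1 call was lost without any 1 of 6 arrays, namely attachment replicate 2, low-attachment replicates 2 and 3 and all FP001 arrays (0.0539 to 0.324). That of RELA was lost without attachment replicate 2 or FP001 replicates 1 or 2 (0.0504 to 0.172). FOXO3, a known activator of BNIP3 in mouse muscle, differed by −0.10 ± 0.10 between FP001 and low attachment (0.731).

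The mitochondria that the receptors would mark were read through 8 fission and fusion genes and 14 genes of content and biogenesis. With FP001 against attachment plates 1 and 3 of these were called lower, beside 11.4% of all genes. On low attachment 0 and 1 were, beside 5.76%. None was called higher, beside 8.08% and 4.31% of all genes. MFN1, a fusion protein of the outer membrane, fell by 0.41 ± 0.12 with FP001 (limma adjusted p = 0.0350), a call lost without either attachment array or FP001 replicates 1 or 2 (0.0725 to 0.173). POLRMT, the mitochondrial RNA polymerase, fell by 0.46 ± 0.12 (0.0275), a call lost without either attachment array or any FP001 array (0.0512 to 0.145). TIMM23, the import channel of the inner membrane, fell by 0.40 ± 0.10 both with FP001 (0.0182) and on low attachment (0.0257), and both calls were lost without either attachment array (0.0672 to 0.156), the first also without FP001 replicate 2 (0.0575). CS, citrate synthase, fell by 0.30 ± 0.09 with FP001 (0.0449), which was lost without either attachment array, low-attachment replicate 3 or any FP001 array (0.0550 to 0.244). Between FP001 and low attachment the medians of the lists were 0.01 and 0.02. There DNM1L, the fission GTPase, differed by −0.05 ± 0.09 and MFN2 by 0.10 ± 0.08. MFN1 averaged 213 with FP001, 220 on low attachment and 283 on attachment plates, and POLRMT 134, 142 and 185.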

How the data were processed

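The intensity of each probe set on each array was made by the authors with MAS5, per the submitters' processing notes, and deposited on a linear scale. Its version, settings and scaling were not given in the sources used. Per the labels' protocols, cRNA came from a 3' in vitro transcription kit, and what part of a transcript a probe set reads is uncertain. Probe sets were named from the platform annotation, updated through RefSeq gene identifiers (16098 with 1 symbol, 0 with several, 37519 unnamed). Attachment replicate 1 was left out. Log2 intensities were used without further normalization. A probe set was kept where it reached the array median on at least 3 of 8 arrays (27942, of which 11711 were named), and the brightest stood for each of 10916 genes (455 had several). The 3 groups were fitted together with limma 3.58.1 in R 4.3.3 (trend, 5 residual and 5.6 prior degrees of freedom), two-sided, with Benjamini-Hochberg adjustment over all genes and calls under 0.05. Differences are FP001 minus low attachment or attachment, and low attachment minus attachment. The script was tested on simulated data. Same-numbered FP001 and low-attachment arrays deviated from their group means together (r = 0.483, 0.309 and 0.231), so their numbers were taken as pairs, which attachment arrays did not show (r = −0.256 to 0.138). The planned block nevertheless covers the 3 groups. Named were, per list and comparison, up to 4 called genes of largest change, the brightest of a list without calls, and a fixed set of receptors and regulators. The members and lists were chosen with earlier results of these data known. Alternatives covered filters, scaling, a pseudocount of 16, the variance trend, the groups fitted, the block, probe sets and single arrays left out.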

Additional observations from a re-analysis of the deposited data

How the results depend on the processing

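With attachment replicate 1 put back (all 9 arrays), limma called 0 genes in all 3 comparisons and 0 list genes against attachment plates, and BNIP3 stood at 1.92 for FP001 minus attachment and 2.25 for low attachment minus attachment, BNIP3L at 1.23 and 1.89. Named genes that turned direction with it, for FP001 and for low attachment minus attachment, were NIPSNAP1 (0.58 and 0.64), BAX (0.69 and 0.64), BNIP2 (0.39 and 0.42), ADM (0.58 and 0.67), ANGPTL4 (0.078 and 0.24), TIMM23 (1.91 and 1.90), and for FP001 alone RHOT1 (1.50), GABARAPL1 (1.09), ATG3 (−0.54), ULK1 (0.97), ARNT (0.27), KDM3A (0.48), RELA (0.84), MFN1 (1.01), POLRMT (0.67), CS (1.95), DDIT4 (1.70), VEGFA (0.98) and LDHA (1.30). The cause was not tested. The 12 calls between FP001 and low attachment were 0 without the variance trend and 142 with the replicate block, where list calls were 1, DDIT4, and no other named list gene changed its call there. With that block on the low-attachment arrays alone they were 117 and 1. Against attachment plates the block also ties attachment replicates 2 and 3 to arrays that share only their number. It gave calls for EPAS1 with FP001 (−0.39) and for EPAS1 (−0.43) and GABARAPL1 (−0.50) on low attachment, and ended those of ATG14 with FP001 (adjusted p = 0.0637, limma) and of TFEB (0.0536) and BNIP2 (0.0607) on low attachment. Under the remaining settings with 8 arrays both members kept their direction in all 3 comparisons, with BNIP3L at −0.66 to −0.65 and BNIP3 at −0.34 to −0.33 between FP001 and low attachment. With single arrays left out, calls numbered 661 to 2303 for FP001 minus attachment, 359 to 1301 for low attachment minus attachment and 0 to 11 for FP001 minus low attachment, and list calls 8 to 32, 3 to 14 and 0. BNIP3 then lay at −0.66 to −0.18, −0.33 to 0.16 and −0.38 to −0.25 in those comparisons, and BNIP3L at −0.87 to −0.62, −0.22 to 0.04 and −0.68 to −0.62. Signal over background could be judged only by the array median used as a filter. With 2 attachment arrays, differences from attachment plates rest on their gap.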
